A study of Mus musculus with 2 samples.

Results

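Ribosomal protein genes were followed in single cells that had been sorted as endothelial cells from the mammary gland and from mammary tumors of mice. The members were chosen by name: every row whose symbol is Rpl or Rps followed by a number, with an a, x, y or l ending allowed, and the rows Rplp0, Rplp1, Rplp2 and Rpsa. This gave 83 of the 13774 genes in the table, 51 of the large and 32 of the small ribosomal subunit. The 15 rows named as pseudogenes (-ps) and the 8 Rps6k kinase rows were not members. Of the 83 members, 82 had counts in the normal library and 83 in the tumor library.

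The study set normal endothelial cells (NEC) against tumor endothelial cells (TEC) with 10x Genomics 3′ single-cell RNA sequencing, and there was 1 library of each. Both came from female C57BL6/J mice, 8 weeks old, that carried Cdh5Cre-ERT2:ZSGreen, in which tamoxifen switches on the fluorescent protein ZSGreen through the endothelial Cdh5 promoter. Live ZSGreen-positive cells were sorted, for TEC from tumors that grew for about 3 weeks after 1000000 cells of the mouse mammary tumor line EO771 had been placed in the mammary fat pad, and for NEC from counterpart mammary glands. The labels give no drug treatment beyond tamoxifen and do not say how many animals entered a library.

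A ribosome is built from ribosomal RNA and about equal amounts of each ribosomal protein, which join a large and a small subunit in the nucleolus before export. The genes of these proteins are among the most transcribed in most cells, and lymphocytes are known for a high share of such transcripts. Their mRNAs begin with a pyrimidine tract (the 5′ TOP motif) that couples their translation to growth signalling through mTOR and Larp1. Several members have paralogs with their own expression pattern, such as Rps27l beside Rps27.

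The libraries differed in depth and in cells, and this bears on every comparison between them. The shallowest TEC cell held 6376 UMIs (unique transcript counts), while kept cells had a median of 2259 UMIs in NEC (1794 cells) and 8594 in TEC (997 cells), and 2 cell barcodes occurred in both. The label of endothelial cells was not borne out by markers for most cells of the table used here. Its 12 endothelial markers summed to 41.8 CPM (UMIs per 1000000) in NEC and 92.4 CPM in TEC, with Cdh5, Kdr, Emcn and Robo4 at 0 in NEC and Tek and Cldn5 at 0 in TEC. These values cover the cells of this table only and not any sorted cells outside it. Only cluster 17, with 3 NEC and 6 TEC cells, met the marker rule for endothelial-like cells. The cells are therefore described as leukocyte-like and other classes found by clustering without the ribosomal protein genes. With 1 library per group there is no replicate check and no test, and every interval given is a 95% exact interval that covers counting error only.

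The sequences of Rps27 and Rps27l are shown first because the balance of these paralogs differed most between cell classes. Rps27 lies at chr3:90212522-90213651 (GRCm38, minus strand) and Rps27l at chr9:66946086-66949516 (plus strand). Their coding sequences are both 255 bases with the stop codon and differ at 61 of them (76.1% identity). Capitals mark the differing bases, read 5′ to 3′ from the GENCODE transcripts.
Rps27: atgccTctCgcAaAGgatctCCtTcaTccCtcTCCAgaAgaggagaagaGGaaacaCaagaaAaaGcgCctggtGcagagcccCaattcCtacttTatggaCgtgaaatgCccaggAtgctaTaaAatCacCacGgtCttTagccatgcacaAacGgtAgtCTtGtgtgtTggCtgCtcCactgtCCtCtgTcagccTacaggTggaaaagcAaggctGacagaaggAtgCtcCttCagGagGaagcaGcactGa
Rps27l: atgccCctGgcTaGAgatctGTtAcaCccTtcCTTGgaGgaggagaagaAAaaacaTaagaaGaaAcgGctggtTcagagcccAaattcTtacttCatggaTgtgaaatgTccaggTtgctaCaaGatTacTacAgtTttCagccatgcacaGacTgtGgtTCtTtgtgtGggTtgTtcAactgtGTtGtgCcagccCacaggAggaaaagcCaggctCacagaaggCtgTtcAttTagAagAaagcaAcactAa
Another locus, Rps27rt at chr9:114982366-114982739, has a coding sequence 100% identical to that of Rps27, so the counts of Rps27 and Rps27rt cannot be taken as separate. Near copies are common among the members: 46 of 83 had at least 1 other annotated locus with at least 95% identity over at least 60% of the transcript, and 21 had such a locus in the table. Values of those members are uncertain to that extent.

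In each of the 3 classes with at least 20 cells of both libraries, ribosomal protein genes took a smaller share of UMIs in TEC than in NEC. The median cell gave 39.0% of its UMIs to the 83 members in NEC and 22.5% in TEC. In macrophage or monocyte-like cells the medians were 26.7% (quartiles 21.9 and 30.6, 302 cells) in NEC and 17.5% (13.0 and 22.0, 539 cells) in TEC. Summed over these cells, the share was 27.1% and 18.0%, a ratio of 0.663 (0.660 to 0.666). Dendritic-like cells, which are cluster 11, had medians of 28.1% (22 NEC cells) and 21.8% (59 TEC cells), with a summed ratio of 0.868 (0.857 to 0.879). In cluster 11 the T or NK markers summed to 92.3 CPM in NEC and 1721 CPM in TEC. The macrophage or monocyte markers summed to 157 and 1602 CPM, and the part of both in the dendritic-like values was not tested.

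T or NK-like cells had the highest share in NEC, with a median of 47.7% (673 cells), against 29.3% in TEC (109 cells) and a summed ratio of 0.656 (0.654 to 0.659). Different clusters made up this class in the libraries. Cluster 2, led by the T-cell factors Lef1 and Tcf7, held 576 of the NEC cells at a median of 48.6%, and 4 TEC cells with a median of 46.8%. Cluster 9, led by granzyme genes, held 84 of the TEC cells at 28.3%, and its 7 NEC cells had a median of 29.4%. In cluster 7 (Tnfrsf4, Ctla4, Icos), which held 90 NEC and 21 TEC cells, the medians were 36.7% and 33.3%. Within each of these T or NK-like clusters the libraries were thus closer to each other than in the whole class. The leading genes of cluster 7 also include Rora, Gata3 and Calca, and those of cluster 9 Klra7, Klrc1 and Xcl1. Whether both libraries supplied the same kind of cell to a cluster was not tested.

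The macrophage or monocyte-like clusters also differed in make-up, but the gap was present inside clusters that held cells of both. Cluster 6 (Ace, Treml4) had medians of 27.3% in 95 NEC cells and 21.1% in 33 TEC cells, and cluster 3 (Arg1, Inhba) had 28.1% in 10 NEC cells and 18.2% in 264 TEC cells. The 7 neutrophil markers moved with these values, from 6774 CPM in NEC to 3587 CPM in TEC in cluster 6 and from 1895 to 533 CPM in the whole class, with Cxcr2 at 0 in NEC, and their part in the share was not tested. The exception was cluster 8 (Lyz1, Fcrls), at 30.8% in 107 NEC cells and 31.4% in 2 TEC cells. Macrophages of cluster 13 (Lyve1, Folr2), seen in NEC alone, had a low median of 20.4%, and those of cluster 4 (C1qa, Ms4a7, Ifit3), seen in TEC alone, the lowest of these clusters at 16.2%.

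**Figure D1:**
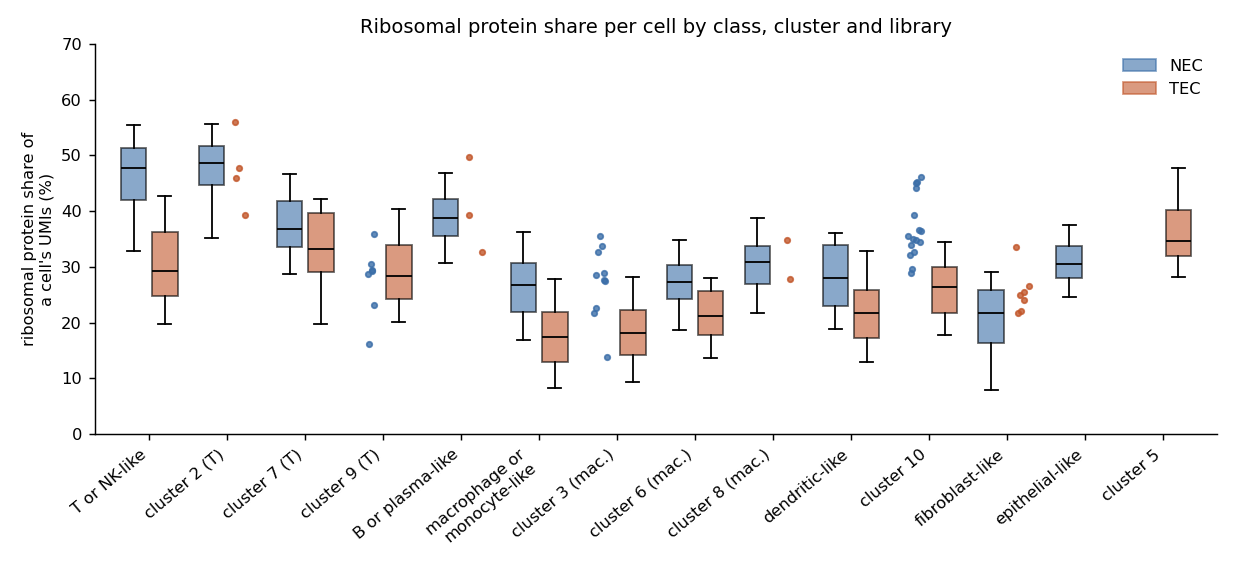
Ribosomal protein share of each cell's UMIs (percent, vertical axis) by cell class and cluster (horizontal axis) in NEC (blue) and TEC (orange). Boxes show the median and quartiles and whiskers the 5th and 95th percentile over cells, groups under 20 cells are drawn as points and groups of 1 cell are left out; T or NK-like cells of NEC stand highest at a median of 47.7% and macrophage or monocyte-like cells of TEC are at 17.5%.

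Among the other classes, B or plasma-like cells of NEC had a median share of 38.9% (673 cells), and the 3 TEC cells of this class allowed no comparison. Epithelial-like cells of NEC were at 30.4% (31 cells) and fibroblast-like cells at 21.7% (73 cells), and 7 TEC fibroblast-like cells had a summed share of 25.5%. Cluster 5, an unnamed group of 199 TEC cells led by Rhox5, Nppb and Hmga2, had a median of 34.7%, close to the 33.3% of cluster 7 in TEC. Its cells were also the deepest, with a median of 40004 UMIs. Cluster 10, unnamed and led by Cd209a, had 35.3% in 16 NEC cells and 26.4% in 74 TEC cells.

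The lower share in TEC macrophage or monocyte-like cells, called macrophages for short below, was also present among cells of overlapping depth. Among macrophage or monocyte-like cells with 4000 to 8000 UMIs, a range in which TEC cells start at 6376, the summed share was 27.1% in 100 NEC cells and 16.7% in 339 TEC cells. In T or NK-like cells of that range it was 50.6% (120 cells) and 32.0% (32 cells). At or above the 6376 UMIs of the shallowest TEC cell, 37 NEC macrophage or monocyte-like cells had a median of 28.7% and 13 NEC T or NK-like cells a median of 44.6%. Within NEC the share rose with depth, as a description over cells of 1 library, with Spearman's rho of 0.41 in T or NK-like, 0.38 in B or plasma-like and 0.20 in macrophage or monocyte-like cells. In cluster 5 rho was -0.29.

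**Figure D2:**
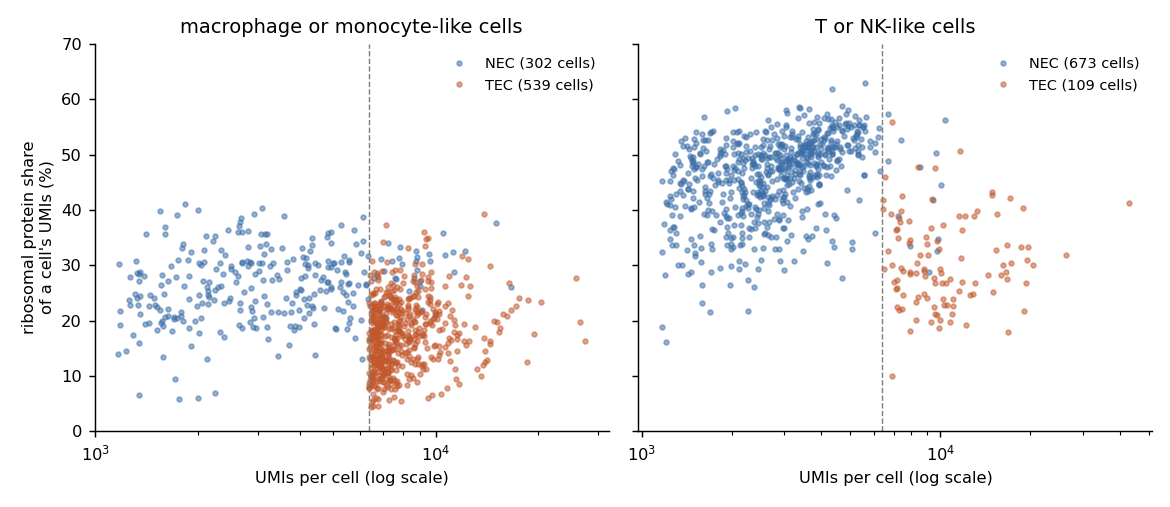
Ribosomal protein share (percent, vertical axis) against UMIs per cell (log axis) for macrophage or monocyte-like cells (left) and T or NK-like cells (right), 1 point per cell, NEC blue and TEC orange. The dashed line marks the shallowest TEC cell at 6376 UMIs; right of it TEC macrophages lie mostly below the NEC cells of like depth.

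A share can fall while the members' own counts do not. The median macrophage or monocyte-like cell held 871 member UMIs of 3151.5 in NEC and 1376 of 7479 in TEC. Mitochondrial UMIs moved in the same direction as the share, from 2.65% to 1.61% in these cells and from 3.21% to 1.85% in T or NK-like cells, and within TEC macrophages the share and the mitochondrial percentage had a rho of 0.50 over 539 cells. The part of mitochondrial content in the share was not tested. Among TEC T or NK-like cells, 99 of 109 held a UMI of Lyz2, Csf1r or Cd68, and the 17 macrophage markers summed to 4882 CPM there, with 0 of them undetected, against 79.0 CPM in NEC, with Csf1r, Adgre1, Fcgr1, Ms4a7, Fcgr4 and Treml4 at 0. The 15 proliferation genes summed to 462 CPM in NEC and 2330 CPM in TEC T or NK-like cells. The part of both in the T or NK-like values was not tested. The 10 TEC cells without such a UMI had a median share of 35.8%, against 28.6% for the 99, and the 620 NEC cells without one had 47.6%. The summed ratio without the mixed cells was 0.762, over those 10 and 620 cells.

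Inside the ribosomal protein pool, most members differed less than 1.5-fold between cell classes of NEC. Over 6 classes, the 80 members with at least 500 UMIs had a median fold of 1.43 between their highest and lowest class, and 10 exceeded 2-fold. Rpl39, a small protein of the exit tunnel, varied least, from 1.64% of ribosomal protein UMIs in epithelial-like to 1.78% in T or NK-like cells. These proportions are of 3′ UMIs and were not scaled by gene length. The member with the most UMIs over both libraries, Rpl13, made up 2.25% of member UMIs in NEC and 3.45% in TEC, and Rpl32, the next, 1.90% and 3.20%.

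Rps27l had the widest range by far. It made up 0.0321% of ribosomal protein UMIs in NEC T or NK-like cells, 0.034% in B or plasma-like, 0.105% in epithelial-like, 0.211% in fibroblast-like, 0.273% in macrophage or monocyte-like and 0.725% in dendritic-like cells, a fold of 22.6. Rps27 ran differently, with its highest share of 4.47% in B or plasma-like cells and its lowest of 2.19% in macrophage or monocyte-like cells. As a share of the UMIs of both genes, Rps27l was 0.764% in NEC B or plasma-like and 0.950% in T or NK-like cells, 11.1% in macrophage or monocyte-like and 20% (17.6 to 22.6) in dendritic-like cells. Among the TEC groups, which include no B or plasma-like cells, it was lowest in T or NK-like cells, at 10.3%, with 17.5% in macrophage or monocyte-like and 31.7% in dendritic-like cells. The unnamed cluster 10, which has the dendritic markers Flt3 and Cd209a, was at 15.2%, and cluster 5 at 17.5%. The high value is thus that of cluster 11. RPS27L is known as a p53 target whose product can replace RPS27 in the small subunit.

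Dendritic-like cells of NEC also stood out for the small-subunit genes Rps19, which is mutated in Diamond-Blackfan anemia, and Rpsa, which encodes the laminin-receptor protein. Rps19 held 4.68% of their ribosomal protein UMIs and 1.88% in macrophage or monocyte-like cells, a fold of 2.49. Rpsa held 2.06% there and 0.742% in epithelial-like cells, a fold of 2.78. In TEC dendritic-like cells Rps19 was again high at 3.93%, while Rpsa was at 1.24%. The large-subunit gene Rpl12 showed the reverse, with 1.13% in T or NK-like and 0.462% in dendritic-like cells of NEC. Rpl3, which lines the peptidyl transferase center, was highest in epithelial-like cells at 1.53% and lowest in fibroblast-like cells at 0.632%.

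In TEC, 81 members over 5 groups had a median range of 1.33-fold, and cluster 5 supplied many of the ends. It had the lowest share of Rpl22l1 (0.155%, against 0.528% in T or NK-like cells) and Rpl39 (0.619%, against 1.45% in cluster 10). It had the highest share of Rpl13 (4.05%), Rpl36a (1.29%) and Rps2 (2.23%). Rpl22l1, the paralog of Rpl22, was 20.5% of the UMIs of that pair in cluster 5 and 41.5% to 52.2% in the other 4 TEC groups. In NEC it ran from 31.6% in dendritic-like to 53.4% in T or NK-like cells.

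**Figure D3:**
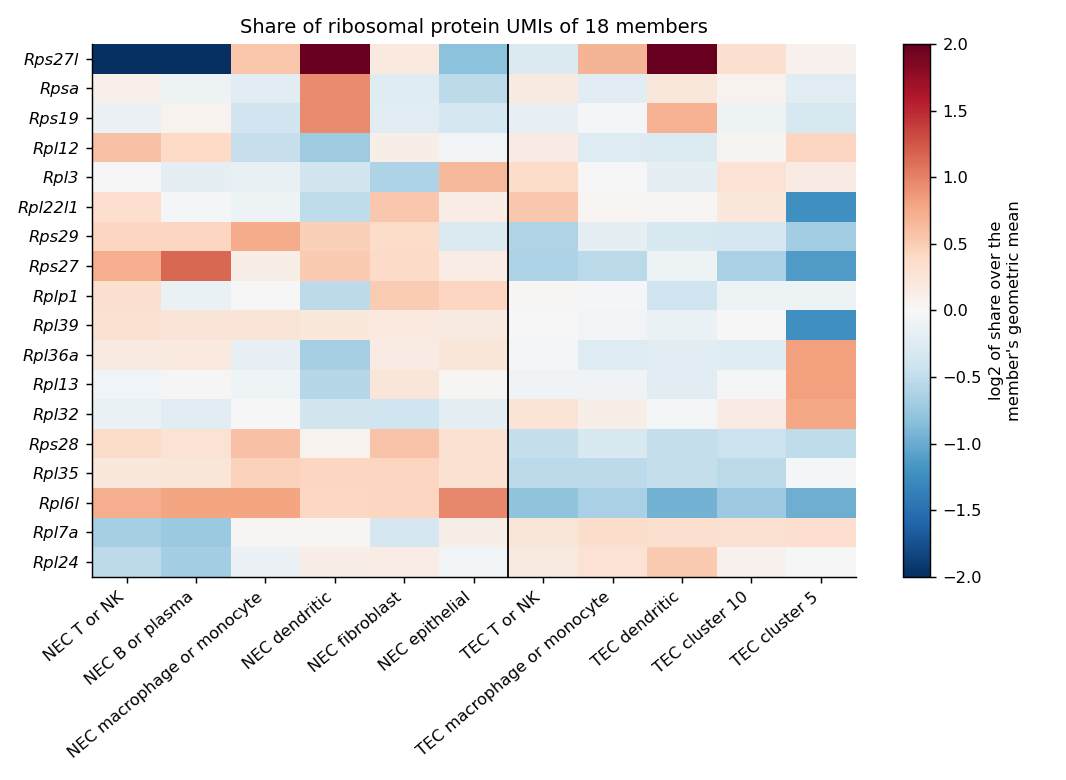
Share of ribosomal protein UMIs of 18 members (rows) in 6 NEC and 5 TEC groups of cells (columns), as log2 of the share over the member's geometric mean across columns; red is higher, blue lower and the color scale ends at -2 and 2. Rps27l is high in both dendritic-like columns. Of the members drawn, Rpl6l, Rpl35, Rps28, Rps27 and Rpl39 are higher in all NEC columns (left of the black line) than in any TEC column. Rpl7a is lower in all NEC columns than in any TEC column. The TEC column nearest to NEC for Rpl35 is cluster 5.

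Between the libraries, most members had a CPM ratio below 1, as did the whole pool. A member was counted as higher or lower where the ratio was at least 1.5-fold with an interval excluding 1 and at least 50 UMIs over both sums. In macrophage or monocyte-like cells, 29 of 81 tested members were lower in TEC and 1 was higher, with 80 ratios below 1, while 13% of all 6348 genes tested were lower and 33.9% higher. In T or NK-like cells 32 of 81 were lower and 2 higher, against 17% and 37.2% of all 5100 genes, and without the mixed cells 18 were lower. The members' median log2 CPM ratio was -0.51 and -0.50, and that of all genes tested 0.36 and 0.28. Scaled to the median gene, 74 and 67 members were lower. The share of all genes was not computed for that scaling or without the mixed cells, so those counts have no background. In dendritic-like cells 10 of 80 were lower and 0 higher, against 9.41% and 24.8% of all genes, so the lower count is near the background. Inside cluster 6 alone 14 of 80 were lower and 0 higher (11.5% and 19.1% of all genes), and inside cluster 7 alone 9 of 80 were lower and 3 higher (21.8% and 33.5%). No test stands behind these counts.

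Set against the ribosomal protein pool itself, few members moved. In share of ribosomal protein UMIs, 6 of 81 members were lower and 1 was higher among the macrophage or monocyte-like cells of TEC, 6 were lower and 4 higher in T or NK-like cells, and 7 of 80 were lower and 0 higher in dendritic-like cells. For the genes outside the pool, scaled to the UMIs outside it, 16.2% were lower in macrophage or monocyte-like cells and 27.1% higher. The T or NK-like values were 28.1% and 25.1%, and the dendritic-like values 10.2% and 23.6%. Inside cluster 6, 5 of 80 members were lower and 0 higher, against 13.8% and 16.6% of other genes. Inside cluster 7, 8 of 80 were lower and 4 higher, against 23.8% and 33%. Other genes with at least 1000 UMIs, nearer to the members in level, were lower for 13.6% and higher for 36.2% in macrophages, 32% and 29.8% in T or NK-like, 14.9% and 19.1% in dendritic-like, 14.9% and 14.9% in cluster 6 and 44.4% and 22.2% in cluster 7 cells. The share of members called was below these values in each of the 5 comparisons for both directions. In dendritic-like cells, though, the 7 of 80 lower members were near the 10.2% of other genes. The values for genes with at least 1000 UMIs rest on 47 genes in dendritic-like cells, 47 in cluster 6 and 36 in cluster 7. Rpl35, Rpl6l, Rps27 and Rps29 were lower in all 3 classes.

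Rps29 (chr12:69157722-69159186), a zinc-binding protein of the small-subunit head, fell from 2.99% to 1.58% of ribosomal protein UMIs in macrophage or monocyte-like cells (ratio 0.528, 0.514 to 0.542). It went from 2.42% to 1.18% in T or NK-like cells (ratio 0.486) and in dendritic-like cells from 2.51% to 1.44% (ratio 0.574). Rpl35 (chr2:39001580-39005624), a large-subunit protein at the exit of the peptide tunnel, went from 1.03% to 0.520% in macrophages, where its ratio of 0.507 (0.484 to 0.530) was the lowest of the protein-coding members. Its ratio was 0.601 in T or NK-like and 0.533 in dendritic-like cells. In cluster 6, which holds macrophage or monocyte-like cells of both libraries, it was 0.434 (0.373 to 0.503). Rps29 there had 0.684, inside the 1.5-fold limit.

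Rps27 fell from 3.35% to 1.32% in T or NK-like cells (ratio 0.393, 0.381 to 0.405) and from 2.19% to 1.40% in macrophages (ratio 0.639). Rps27rt, its identical copy, was lower too, from 931 to 294 CPM in macrophages and from 2715 to 480 CPM in T or NK-like cells. With the 37 deepest NEC macrophages the Rps27 ratio was 0.817, inside the 1.5-fold limit. Rps28 was lower in macrophages (0.539) and T or NK-like cells (0.559), Rpl37a in macrophages (0.622) and Rps21 in T or NK-like cells (0.583). With only the deepest NEC cells, Rps28 in T or NK-like cells (0.682), Rpl37a in macrophages (0.699) and Rps21 in T or NK-like cells (0.700) were also inside the limit.

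By the 1.5-fold rule, fewer members were higher in share than lower. Of the 80 members tested in the 3 classes, however, 31 had a ratio above 1 in all 3 and 13 below 1 in all 3. Rps27l had a ratio of 4.70 (4.08 to 5.42) in T or NK-like cells, 2.09 (1.60 to 2.76) in cluster 7 alone and 1.09 in macrophages. In T or NK-like cells it was 2.63 with only the deepest NEC cells and 3.60 without the cells that hold a UMI of Lyz2, Csf1r or Cd68, and macrophages of NEC had the higher Rps27l share of 0.273%. Rpl7l1, a paralog of Rpl7 that acts in large-subunit assembly, had 32 UMIs in NEC and 257 in TEC macrophages, a ratio of 3.14 (2.17 to 4.69). Its 52 and 61 UMIs in T or NK-like cells gave an interval of the ratio from 2.04 to 4.44. Rpl7a had a ratio of 1.87 and Rpl24, which forms a bridge between the subunits, 1.64 in T or NK-like cells. Rpl7a has 36 near-identical loci and is uncertain. At the deeper NEC cells the ratio of Rpl7a was 1.30 and of Rpl24 1.21, both inside the limit. The muscle paralog Rpl3l and the testis paralog Rpl39l were nearly absent: in macrophages Rpl3l had 4 and 25 UMIs, and Rpl39l 0 and 13.

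Short members more often had a lower share in TEC, a split that was chosen after the ratios had been seen. Among the 20 shortest, 16 of 19 tested had a ratio below 1 in macrophages, against 13 of the 62 other members tested, and 15 of 19 against 15 of 62 did so in T or NK-like cells. Across 80 members with a coding length, the ratio in macrophages rose with coding length (Spearman's rho 0.53, across genes, which are not independent). The same correlation was 0.39 in T or NK-like, 0.28 in dendritic-like, 0.33 in cluster 6 and 0.45 in cluster 7 cells. For other genes it was -0.23 in macrophages and -0.32 in T or NK-like cells, and for those of at least 1000 UMIs 0.02 (662 genes) and -0.19 (255 genes). With transcript length in place of coding length, rho for the members was 0.37 and 0.16. The 10 members with under 300 coding bases had a median log2 ratio of -0.53 in macrophages, and the 180 other genes of that length one of 0.13.

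**Figure D4:**
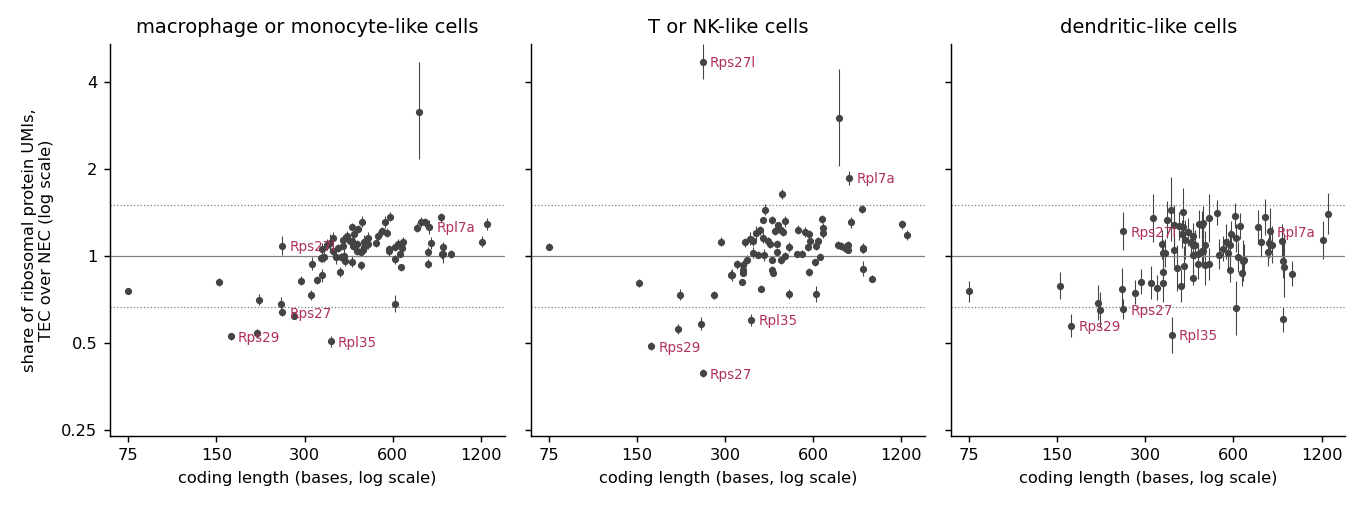
Ratio of a member's share of ribosomal protein UMIs, TEC over NEC (vertical log axis), against its coding length in bases (horizontal log axis) in 3 cell classes, with 95% counting intervals; dotted lines mark 1.5-fold. Rps29 and Rps27 lie below 1 in each panel, and Rps27l stands at 4.70 in T or NK-like cells; Rpl6l has no coding sequence and is not drawn.

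The 20 members with the shortest coding sequences, from Rpl41 and Rpl39 to Rps20, held 27.9% of ribosomal protein UMIs in NEC macrophage or monocyte-like cells and 21.6% in TEC. They held 26.4% and 20.5% in T or NK-like cells, and in dendritic-like cells 26.8% and 22.0%. By cluster, the values lay between 24.9% and 29.8% in NEC and between 18.7% and 24.9% in TEC. The 4 TEC cells of cluster 2 had 20.8% against 26.5% in the 576 NEC cells beside them, and the 2 TEC cells of cluster 1, a B-cell cluster, 18.7% against 27.5%. The total share in these 4 and 576 cells, by contrast, had medians of 46.8% and 48.6%. The proportion also varied with depth, since NEC macrophages had 31.9% at 1000 to 2000 UMIs and 27.1% at 4000 to 8000 UMIs, where TEC macrophages had 21.6%.

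Rpl6l separated the libraries in every class. It is named like a paralog of Rpl6, but GENCODE lists it as a processed pseudogene at chr10:111125851-111126721, and 860 of 871 aligned bases match Rpl6 (98.7%). The window of 120 bases with the most differences is printed to show how close the copies are, with the 7 differing bases in capitals.
Rpl6: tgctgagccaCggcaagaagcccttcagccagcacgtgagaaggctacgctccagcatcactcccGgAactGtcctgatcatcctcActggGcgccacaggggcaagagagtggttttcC
Rpl6l: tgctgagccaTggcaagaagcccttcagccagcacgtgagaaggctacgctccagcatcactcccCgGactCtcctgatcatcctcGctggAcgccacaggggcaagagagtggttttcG
The last 354 aligned bases hold no difference, so a 3′ read from there cannot be given to either gene by its sequence. Rpl6l was 18.1% of the UMIs of the pair in NEC macrophages and 7.06% in TEC, 18.2% and 6.80% in T or NK-like cells, and 15.9% and 7.11% in dendritic-like cells. Over 6 NEC classes it ran from 15.9% to 18.2% and over 5 TEC groups from 6.69% to 7.11%, with no overlap. Such a separation was not particular to Rpl6l. In share of ribosomal protein UMIs, Rps27 was at least 2.19% in NEC and at most 1.90% in TEC, and Rpl39 at least 1.64% and at most 1.45%. Rpl7a ran the other way, with at most 0.537% in NEC and at least 0.584% in TEC. The members without overlap were not counted. Rpl6 itself hardly moved in the pool, with ratios of 1.07 in macrophages and T or NK-like cells and 0.958 in dendritic-like cells.

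The 15 rows of -ps pseudogenes, outside the members, moved the same way. They came to 2.20% of the member UMIs in NEC and 0.927% in TEC. By cluster the range was 2.10% to 2.48% in NEC and 0.775% to 1.01% in TEC. Clusters 1, 2, 8 and 12, where TEC has between 2 and 7 cells, were among the TEC clusters in this range. The short members, Rpl6l and the -ps rows each differed by library in cell clusters of different kinds, and so did Rps29, Rpl35 and Rps27 in the classes compared. With 1 library per group, the cells, the making of the libraries and the processing of their reads cannot be told apart for any of these differences.

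**Figure D5:**
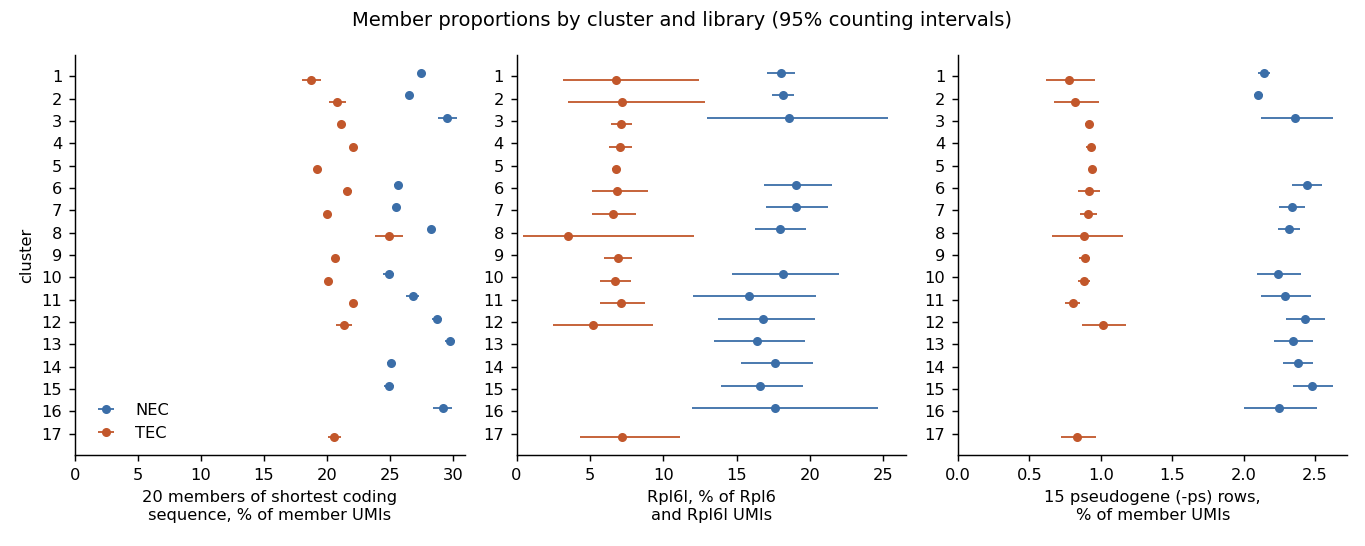
Percent of member UMIs in the 20 shortest members (left), percent of Rpl6 and Rpl6l UMIs in Rpl6l (middle) and UMIs of the -ps rows as a percent of member UMIs (right) for each cluster (vertical axis) in NEC (blue) and TEC (orange), with 95% counting intervals. In the middle and right panels the points of the libraries do not overlap in any cluster; in the left panel cluster 8 of TEC, at 24.9%, reaches the lowest NEC clusters.

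The other gene lists of the translation machinery are read against all genes tested, of which 33.9% were higher and 13% lower in macrophages (median log2 CPM ratio 0.36) and 37.2% and 17% in T or NK-like cells (median 0.28). Fau, a small-subunit protein outside the naming rule that is made as a fusion with a ubiquitin-like protein, was lower in macrophages of TEC (6462 to 4013 CPM). Mitochondrial ribosomal proteins, which serve a separate ribosome, were higher in TEC for 53 and lower for 1 of 71 tested in macrophages, with a median log2 CPM ratio of 0.85. Of the T or NK-like values 42 were higher and 1 lower of 68, with a median of 0.78. Both shares of higher genes were above those of all genes. Dendritic-like cells did not show this by count, with 1 of 14 higher and a median of 0.44, against 24.8% of all genes and a median of 0.33. In cluster 6 alone 2 of 13 were higher and the median was 0.14, against 19.1% of all genes and a median of 0.07. In cluster 7 alone 11 of 16 were higher with a median of 0.95, against 33.5% and 0.26. Initiation factors were higher for 11 and lower for 4 of 32 in macrophages, with Eif4a1, the cap-complex helicase, at 423 and 890 CPM. For T or NK-like cells 13 were higher and 3 lower, and Eif4ebp1, which restrains the cap-binding protein, stood at 15.2 and 114 CPM. In both classes these counts were near the shares over all genes.

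Elongation factors and other TOP transcripts had 5 lower and 2 higher of 17 in macrophages, with a median log2 ratio of -0.44 near that of the ribosomal protein genes. In cluster 6 the 2 medians were also near, at -0.21 for this list and -0.28 for the members. They were further apart in T or NK-like cells, at -0.07 and -0.50. The values were 0.09 and -0.15 in dendritic-like cells and 0.36 and -0.04 in cluster 7. Tpt1, a TOP transcript, fell from 6067 to 3915 CPM in macrophages and from 6884 to 4514 CPM in T or NK-like cells. Among T or NK-like cells 1 of the 17 was lower and 3 were higher, among them Vim at 248 and 2214 CPM. Ribosome biogenesis genes had 9 higher and 3 lower of 43 in macrophages and 5 higher and 4 lower of 43 in T or NK-like cells, fewer higher in both than the 33.9% and 37.2% of all genes. Inside cluster 7 alone the reverse held, with 8 higher and 2 lower of 16, against 33.5% and 21.8% of all genes. Their median log2 ratio there was 0.70, against 0.26 for all genes. Inside cluster 6 alone 0 were higher and 1 lower of 6. Among regulators, 4 were higher and 5 lower of 18 in macrophages and 4 higher and 1 lower of 12 in T or NK-like cells, where the share higher was near that of all genes. Mxd4, a partner of Max that opposes Myc, was lower in both, at 42.0 and 12.2 CPM in macrophages and 116 and 37.1 CPM in T or NK-like cells. Of the ribosome quality control genes, 4 of 8 were higher in macrophages and 3 of 8 in T or NK-like cells, the latter at the share of all genes, and 0 were lower.

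The start regions of Rps27 and Rps27l are given because the paralogs had different class patterns. RefSeq promoter windows (GRCm38.p6) were matched for 62 members. The letters CTTTC, sense strand, from 40 bases before to 40 after the start, a short form of the TOP motif, were found in 41.9% of the members and 10.2% of all 27025 promoters. CCGGAAG, a form of the ETS factor site, was found on either strand in 300 bases in 40.3% and 9.12%. Other forms of this site were not searched for, also in the stretches printed below. TATAAA, sense strand, within 50 bases before the start, was found in 1.61% and 2.88%. The 80 bases from 60 before to 20 after the start are chr3:90213629-90213708 (minus strand) for Rps27 and chr9:66946026-66946105 (plus strand) for Rps27l, with CTTTC and CCGGAAG in capitals.
Rps27: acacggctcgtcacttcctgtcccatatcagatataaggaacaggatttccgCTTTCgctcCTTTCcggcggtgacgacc
Rps27l: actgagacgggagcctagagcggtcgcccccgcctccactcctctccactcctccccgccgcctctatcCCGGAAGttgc
Rps27 holds CTTTC and Rps27l holds CCGGAAG in this stretch. A match is a description of letters and not of binding.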

How the data were processed

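The deposited table holds raw UMI counts, whole numbers for each gene in each cell. The labels' protocols name 10x single-cell 3′ chemistry, and the submitters' processing notes list mm10, Seurat, Cell Ranger 2.0.2 and STAR 2.5.1b without order or role (further settings: not given in the sources used here). Cells whose names begin with control were taken as NEC from that word alone, those beginning with tumor as TEC. Over all cells of the table, UMIs summed to 5228289 (NEC) and 16444540 (TEC), with 2003565 and 4820053 in members.

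Kept were cells of 500 or more genes and 1000 or more UMIs with no more than 10% mitochondrial UMIs, which cost 5 NEC cells. Doublet calls by Scrublet in scanpy 1.11.5, at an expected 0.8% per 1000 cells, took away another 7 NEC and 3 TEC cells. Clustering left the members out (10000 counts per cell, log scale, 2000 variable genes, 30 components, 15 neighbors, Leiden 0.8 through python-igraph 0.11.9) and gave 17 clusters, with no integration. Naming a cluster needed 3 or more class markers, each in 10% or more of cells, at 50 CPM and 2-fold over all remaining cells after adding 5 CPM.

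UMIs were summed by class and library where both had 20 cells. Exact Clopper-Pearson intervals (scipy 1.17.1) go with shares, and ratio intervals condition on the gene total. Simulated counts of known fold served to test this size rule. Python 3.11.15 ran the scripts, with pandas 2.3.3 for tables and matplotlib 3.10.9 for plots. Members, lists and rules were chosen with earlier results of these data known. By rule, names came from the 10 leading members, 8 members at either end of a comparison, the 8 widest NEC ranges, the paralogs and 3 genes at either end of a pathway list, printed in part; the rest were chosen after their values were seen. Coordinates and lengths are from GENCODE M21 (GRCm38). The wider member list adds ribosomal proteins outside the naming rule and the -ps rows. Other filters, scalings, thresholds and clusterings were tried as alternatives. Values of some genes are not reported here.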

Additional observations from a re-analysis of the deposited data

How the results depend on the processing

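No paired analysis was possible because each group has 1 library and no test was made. The ratio of the ribosomal protein share, TEC over NEC, was below 1 in every setting run for all cells, macrophage or monocyte-like, T or NK-like and dendritic-like cells. For all cells it was 0.764, and 0.789 with the stricter cell filter, 0.87 at or above the depth of the shallowest TEC cell, 0.736 without mitochondrial genes and Malat1, 0.746 also without 20 leading genes, 0.755 with the wider member list, 0.622 from means and 0.577 from medians over cells. In macrophage or monocyte-like cells these settings gave, in the same order, 0.651, 0.628, 0.652, 0.661, 0.654, 0.67 and 0.653. There it was also 0.666 with Scrublet calls kept, 0.695 at resolution 0.4, 0.676 when clustered with the members, 0.785 with classes from the highest marker level, 0.657 without mixed cells and 0.791 in cluster 6 alone. In T or NK-like cells it was 0.644 with the stricter filter, 0.713 at the depth floor, 0.64 without mitochondrial genes and Malat1, 0.674 also without the 20 genes, 0.65 with the wider list, 0.665 from means, 0.614 from medians, 0.716 at resolution 0.4, 0.677 clustered with members, 0.668 from the highest marker level, 0.762 without mixed cells and 0.918 in cluster 7 alone. In dendritic-like cells it was 0.75 with the stricter filter, 0.813 without mitochondrial genes and Malat1, 0.787 also without the 20 genes, 0.856 with the wider list, 0.798 from means, 0.777 from medians, 0.798 at resolution 0.4, 0.715 from the highest marker level and 0.765 without mixed cells, and the depth floor left under 10 NEC cells. The share in NEC B or plasma-like cells was 39.9%, and 43.5%, 44.9%, 43.4%, 47.8%, 41.7%, 39% and 38.9% in the order of the all-cell settings, and 39.8% without mixed cells. The settings of cluster 6 or 7 alone, and the split by coding length, were chosen after seeing the data. In share of ribosomal protein UMIs, the 6 lower and 1 higher macrophage members became 1 lower at 2-fold, 11 lower and 11 higher at the looser fold, and 2 higher with a minimum of 10 UMIs. The 6 lower and 4 higher T or NK-like members became 3 and 2 at 2-fold, 11 and 13 at the looser fold, and 2 were higher at the depth floor. In CPM, the 29 lower in macrophages became 10 at 2-fold, 68 at the looser fold, 74 scaled to the median gene and 45 at the depth floor. The 32 lower in T or NK-like cells became 10 at 2-fold, 63 at the looser fold, 67 scaled to the median gene and 18 without mixed cells, and the 2 higher became 1 at 2-fold, with 200 UMIs, at the depth floor and without mixed cells. The share of all genes past the fold was not computed for these settings. A looser or stricter fold changes the counts by construction, and for the others the cause was not tested. With 1 library per group, animal, dissociation, chemistry, depth and cell make-up cannot be told apart from tumor and normal tissue.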
